A study of Mus musculus with 4 samples.

Results

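The cells described here are the donor-derived epithelial cells recovered from the tracheas of 2 recipient mice, one grafted with basal cells made from mouse embryonic stem cells (iBC) and the other with primary basal cells (primary BC) taken from mice. They are all barcodes of the 2 GFP-positive libraries with at least 500 genes and at most 20% of their UMIs (unique molecular identifiers, which count captured RNA molecules) from mitochondrial genes. This gave 1585 iBC donor-derived and 1819 primary BC donor-derived cells, 3404 of the 6624 cells that pass the same limits in all 4 libraries of the series. The tracheal epithelium of each recipient was injured with 2% polidocanol, and 6000000 cells were placed 5 h later. The iBC recipient was analysed 192 days after transplantation and carries the strain label 129 X1/S1, and the primary BC recipient was analysed after 69 days and carries the label C57BL/6. Tracheas were digested with pronase, and Calcein Blue-positive cells were sorted by GFP into the donor-derived (GFP-positive) and endogenous (GFP-negative, host) libraries. Each group is 1 library of 1 recipient, so no difference has a replicate check and no p-value is given. Origin of the graft, days after transplantation and strain label differ together and cannot be told apart. The 2 endogenous libraries carry the same difference in days and label. They come from the same 2 grafted tracheas, so the animal and the kind of graft beside the cells differ as well. Their values are given beside those of the donor-derived cells and do not separate these factors.

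Basal cells are the stem cells of the tracheal lining. They sit on the basement membrane, express Krt5 and Trp63, and give rise to secretory cells, which release antimicrobial proteins and mucins and metabolise foreign compounds, and to ciliated cells, which move mucus. MHC class II molecules show peptides to CD4+ T cells. They are best known from antigen-presenting immune cells, but epithelial cells can make them too, under the transactivator Ciita, which interferon gamma induces.

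The class II genes were the group furthest apart between the grafts, so stretches of 4 of their promoters are shown first. Each is the 70 bases from 100 to 31 bases before the RefSeq transcription start (GRCm38.p6, written 5′ to 3′ on the gene's strand), with GATTGG in capitals, the core of the Y box to which the factor NF-Y binds in class II promoters. H2-Aa, whose alpha chain pairs with the beta chain of H2-Ab1, lies at chr17:34287854-34287923 on the minus strand. H2-Eb1 lies at chr17:34305767-34305836, the peptide-loading gene H2-DMb1 at chr17:34153091-34153160 and its modulator H2-Ob at chr17:34238805-34238874, all on the plus strand.
H2-Aa: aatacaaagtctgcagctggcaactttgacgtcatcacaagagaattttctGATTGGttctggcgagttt
H2-Eb1: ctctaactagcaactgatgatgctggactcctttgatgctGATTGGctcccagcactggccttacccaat
H2-DMb1: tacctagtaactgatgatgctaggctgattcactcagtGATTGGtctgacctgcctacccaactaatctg
H2-Ob: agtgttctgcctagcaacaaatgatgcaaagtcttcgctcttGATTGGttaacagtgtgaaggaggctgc
The motif starts 49, 60, 62 and 58 bases before the start of H2-Aa, H2-Eb1, H2-DMb1 and H2-Ob. Of 12 class II list genes in the files, the promoters of 9 were examined, and 6 of these hold GATTGG on the gene's strand in this window. The invariant chain gene Cd74 was not among the 9, and its promoter was not tested for the motif. Over all 32851 promoters, 1158 (3.53%) hold GATTGG on the gene's strand and 2236 (6.81%) on either strand (GATTGG or CCAATC). The list promoters were selected separately from this background, and no test compared their shares. A match is a match of letters, and binding was not measured.

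Doublets called in each library (9 iBC and 14 primary BC cells) were removed, which left 1576 and 1805 donor-derived cells with a median of 11992 and 11902 UMIs. One barcode sequence occurred in both donor-derived libraries. Over the 4 libraries the deposited counts summed to between 21504563 and 26625123 UMIs. Cells were gated by the mean level of fixed marker genes into a basal class (603 iBC and 991 primary BC cells), a secretory class (458 and 268) and a ciliated class (249 and 162). Hillock-like cells (8 and 35) and ungated cells (258 and 349) were not compared. In the basal class Krt5 stood at 1668 CPM (counts scaled to the same total of UMIs in each class sum) in the iBC cells and 2011 CPM in the primary BC cells, Trp63 at 267 and 339 CPM. The other basal markers were lower in the iBC cells too. Krt17 was at 165 and 1061 CPM, Aqp3 at 212 and 1514 CPM, Col17a1 at 99.7 and 192 CPM, and Krt15 at 4849 and 6129.9 CPM. Foxj1, the master regulator of motile cilia, stood at 709.6 and 800.1 CPM in the ciliated class. Other ciliated markers went either way, Tmem212 at 686 and 1672 CPM and Tppp3 at 4539 and 2377 CPM. The secretory marker Scgb1a1 took 262101 CPM of the iBC secretory class and 69376 CPM of the primary BC one. In the endogenous secretory cells it was at 245056 CPM (iBC recipient) and 67698 CPM (primary BC recipient). Markers chose the classes, so their levels are a description. The immune marker list summed to 1.54 to 5.22 CPM and the endothelial one to 1.14 to 6.56 CPM over the 3 classes of both libraries, with the immune marker Ptprc and the endothelial marker Cdh5 at 0 in each and the endothelial marker Kdr at 5.66 CPM in iBC secretory cells. The fibroblast markers Col1a1, Col1a2 and Col3a1 were at 0 in all of these too, while Dcn, also listed as a fibroblast marker, was at 648 and 477 CPM in basal cells.

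Because the gate scales each library on its own, the shares of the classes are given as a description. The basal class held 38.3% of the iBC cells (35.9 to 40.7%) and 54.9% of the primary BC cells (52.6 to 57.2%), the secretory class 29.1% and 14.8%, and the ciliated class 15.8% and 8.98%. These ranges, and all those below, are exact 95% intervals that cover counting error only. The sort sets which cells enter each library.

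The reporter differed between the grafts. The EGFP feature had a UMI in 48.1% of iBC donor-derived cells (45.6 to 50.6%, 65.4 CPM) and in 98.9% of primary BC donor-derived cells (98.3 to 99.3%, 612 CPM). In the endogenous libraries the shares were 0.0553% (iBC recipient) and 2.14% (primary BC recipient). Xist was at 0.990 to 1.82 CPM in the 4 libraries, and the Y-linked genes Ddx3y and Eif2s3y at 36.3 to 52.8 CPM. The Y-linked Kdm5d was at 0.566 CPM in the iBC donor-derived cells and at 18.5, 14.2 and 18.6 CPM in the primary BC donor-derived, iBC recipient endogenous and primary BC recipient endogenous cells.

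A pair of features set cells of the iBC library apart from the others of that library. First, 14 of the 1576 iBC cells (8 basal, 1 secretory, 5 ungated) carried at least 5 of 12 genes that were low in the rest of the library, a pattern held by 90.2% of primary BC donor-derived, 55.1% of iBC recipient endogenous and 79.8% of primary BC recipient endogenous cells. The 12 genes were Sult1d1, Abi3bp, Lgr6, Cdo1, Ugt2b34, Fmo6, Hspb1, Ptges, Id4, Slc16a11, Hoxb2 and Otx1. The cells were chosen by these genes, so the fall of these genes without the cells is set by that choice. The 14 cells held 224 of the 612 UMIs of the sulfotransferase gene Sult1d1, which is among the 12. They had 18.6 CPM of EGFP (4 UMIs) against 65.9 CPM in the rest. They also held 2309 of the 2399 UMIs of Bpifa1, most of them in the 1 secretory cell and 6 in the 8 basal cells. Where leaving out the 14 cells moved a value named below by over 1.5-fold, the value without them is given too.

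Second, the share of UMIs from chromosome 5 separated the iBC cells into groups. Among 439 genes of chromosome 5 in a set of 6638 autosomal genes of moderate level, 307 of 1310 gated iBC cells (23.4%) had a share at least 25% above and 48 (3.66%) one at least 30% below the middle of their class. The other libraries held 0 high and 1 low of 1421 primary BC donor-derived cells, 6 and 0 of 1573 iBC recipient endogenous cells, and 1 and 0 of 703 primary BC recipient endogenous cells. In the iBC basal class, 168 cells (27.9%) were high with a median share of 8.91%, 430 were in the middle at 6.17%, and 5 were low at 3.16%. In the secretory class 109 cells (23.8%) were high at 8.82%, 316 in the middle at 6.12% and 33 (7.21%) low at 3.18%. In the ciliated class 30 were high at 9.15%, 209 in the middle at 6.42% and 10 low at 3.61%. The high share was 1.43 to 1.44 times and the low share 0.51 to 0.56 times the middle share in the 3 classes.

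**Figure D1:**
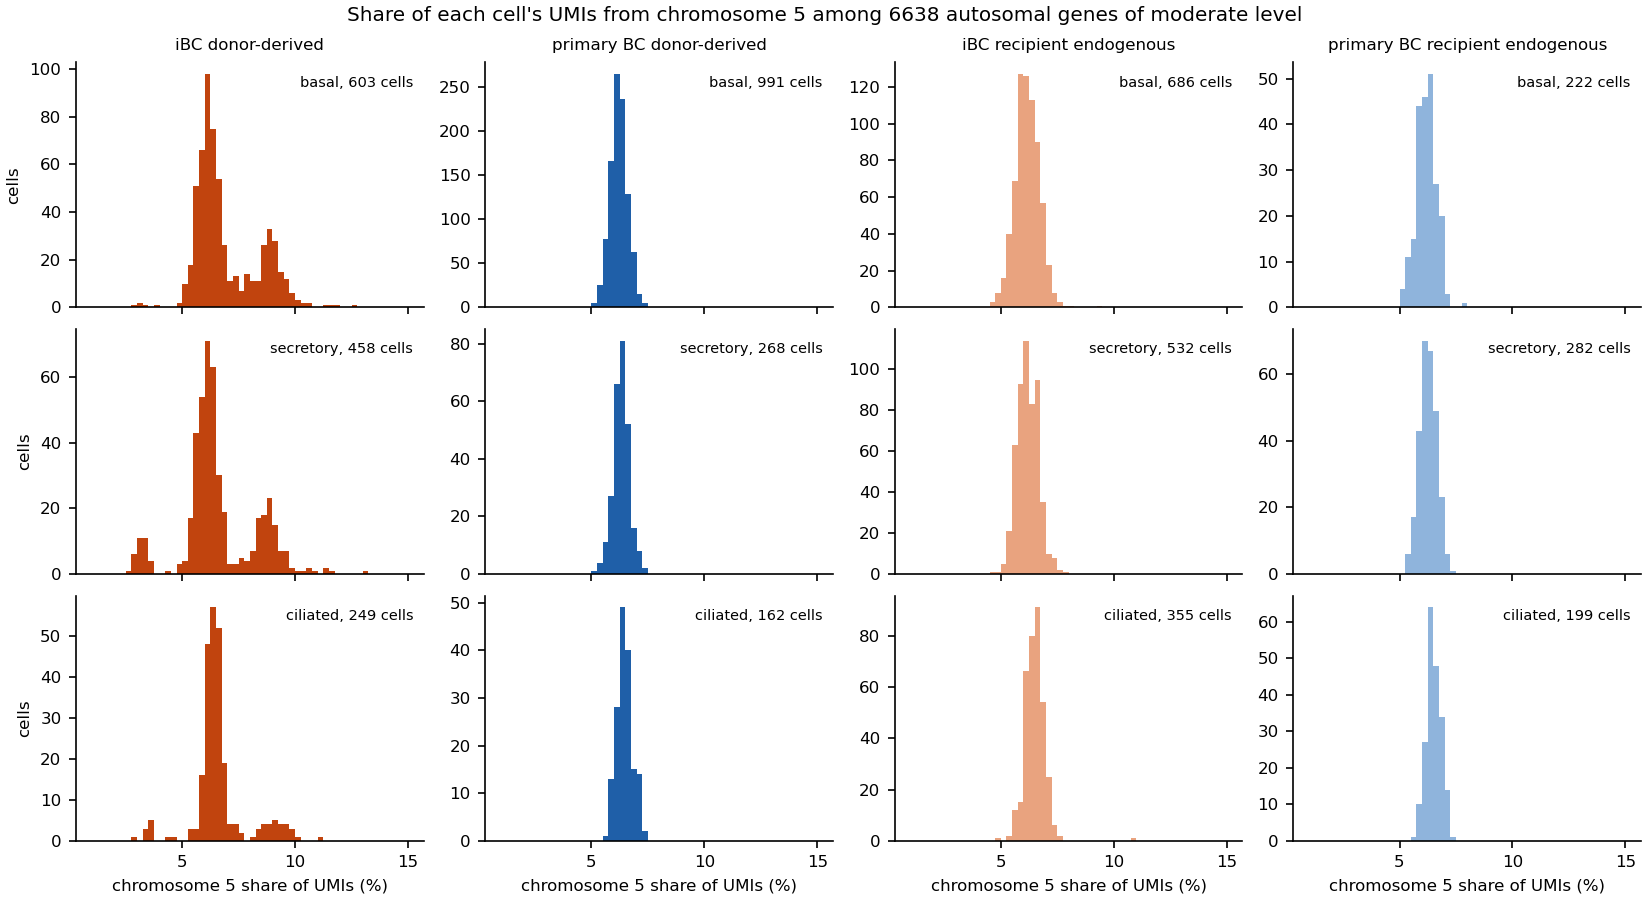
Histograms of the share of each cell's UMIs (percent, x axis) that came from chromosome 5 among 6638 autosomal genes, as numbers of cells (y axis) for 4 libraries (columns) and 3 classes (rows). The iBC donor-derived library has a second peak near 9% in each class and a smaller one near 3% in the secretory class, while the other 3 libraries have 1 peak near 6%.

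The shift ran along the whole chromosome. The groups were chosen by the chromosome 5 share of the same cells, so the sign of its ratios was set by that choice. The ratios describe the size of the shift and its spread along the chromosome. In the summed counts of high against middle cells, the median log2 ratio of chromosome 5 genes was 0.48 in basal, 0.51 in secretory and 0.50 in ciliated cells relative to all genes, and other chromosomes lay between −0.07 and 0.05. In low against middle cells chromosome 5 was at −0.76, −0.85 and −0.91, and other chromosomes lay between −0.37 and 0.26 in basal (5 low cells), −0.04 and 0.10 in secretory, and −0.05 and 0.15 in ciliated cells. Over the 10 windows of 10 Mb with at least 20 genes, with the classes summed, the high cells were at 0.36 to 0.55 and the low cells at −0.99 to −0.67. The standard deviation of the share over cells was 3.29 to 4.15 times that of counting error alone in the iBC classes, and at most 1.27 times in those of the other libraries. Groups of cells with a low share also occurred for chromosome 8 (56 cells, 4.27%), chromosome 14 (34 cells, 2.60%) and chromosome 13 (16 cells, 1.22%). A high share was found in 25, 41 and 10 iBC cells for these 3 chromosomes, and for chromosome 14 also in 63 iBC recipient endogenous cells (4.01%). DNA was not measured. Among iBC basal cells the proliferation marker Mki67 was at 101 CPM in high and 15.3 CPM in middle cells, and the hillock keratin Krt13 at 51.3 and 3.63 CPM. In secretory cells Mki67 was at 0.625 CPM (1 UMI) in high and 16.1 CPM in middle cells. EGFP was found in both groups, at 92.4 CPM in high and 63.7 CPM in middle basal cells. Of the 14 cells above, the 9 gated ones were in neither the high nor the low group, and the 5 ungated ones were not assigned.

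Between the 2 grafts, class by class, the MHC class II genes, interferon-induced GTPases and the surface gene Ly6d were higher in the iBC cells, and the antimicrobial protein genes Bpifa1 and Reg3g, the xenobiotic enzyme genes Sult1d1 and Cyp2a5 and the Hoxb genes were lower. A gene was measured where its class sum reached 20 CPM in either graft and called where the CPM of the 2 sums were at least 2-fold apart. Log2 ratios are given on the scale of log2(CPM + 5), which understates the ratio of low genes. In basal cells 413 of 6767 measured genes were higher (6.10%) and 394 lower (5.82%) in the iBC graft. In secretory cells 446 of 5449 were higher (8.18%) and 375 lower (6.88%), and in ciliated cells 430 of 7291 were higher (5.90%) and 469 lower (6.43%). The counting interval of the ratio left out 1 for each of these genes, which the limits of 20 CPM and 2-fold ensure at these depths. It therefore adds no support to the calls. Median ratios over all measured genes were 0.08, 0.14 and 0.09 on the log2 scale.

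**Figure D2:**
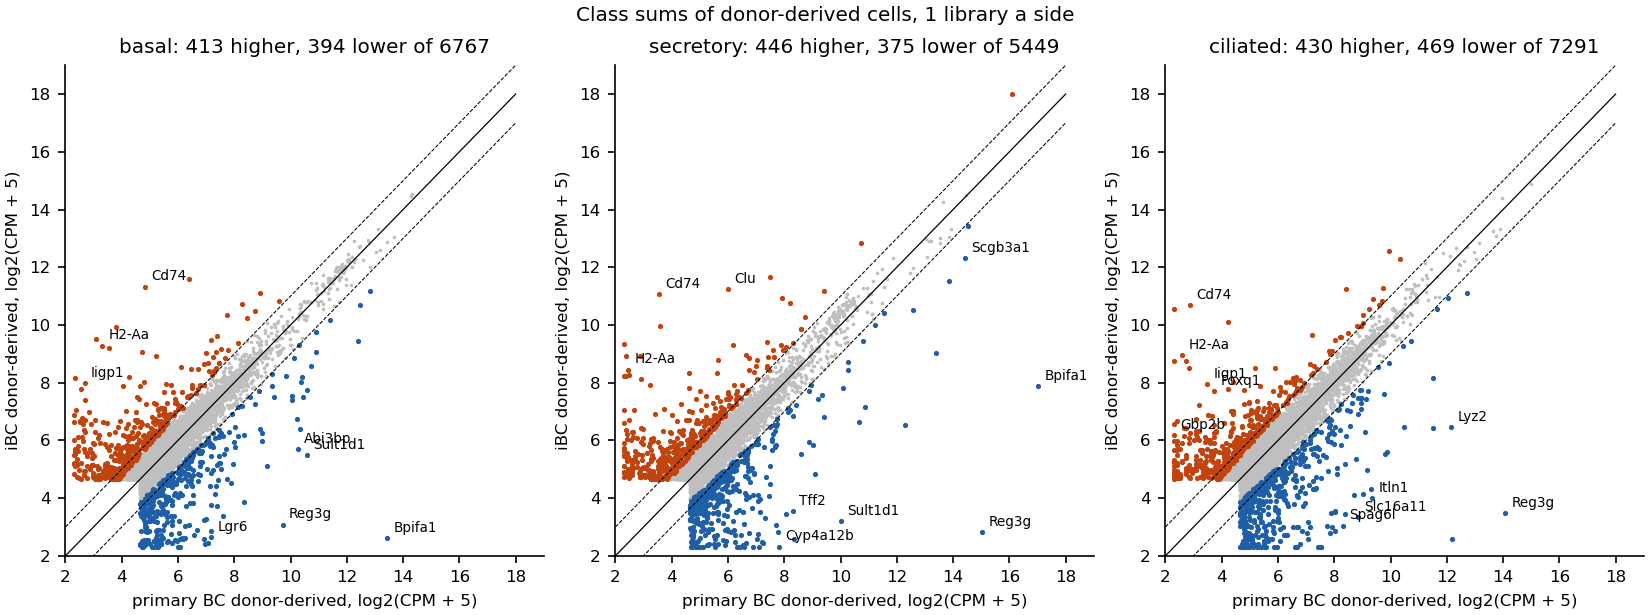
Level of each measured gene in the primary BC (x axis) and iBC (y axis) donor-derived class sums, both as log2(CPM + 5), with genes at least 2-fold apart in CPM in color, the rest in grey, and dashed lines 1 unit from the diagonal, for the basal, secretory and ciliated classes. Most genes lie near the diagonal, and the called genes are spread on both sides, 413 above and 394 below it in basal cells.

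The endogenous cells of the same 2 mice were closer to each other. Across genes, Pearson's r between recipients was 0.842, 0.796 and 0.830 for donor-derived basal, secretory and ciliated cells, and 0.948, 0.934 and 0.917 for endogenous cells. Genes within a library are not independent, and r is a description. In endogenous cells of the basal class 104 genes were higher (1.60%) and 181 lower (2.79%) in the iBC recipient. In the secretory class 78 were higher (1.64%) and 213 lower (4.47%), and in the ciliated class 203 (2.88%) and 257 (3.64%). Of the genes called between the grafts, 78 of 413 higher (18.9%) and 63 of 394 lower in basal cells were also at least 2-fold apart the same way between the endogenous cells. In secretory cells these shares were 15.9% and 25.3%, and in ciliated cells 23.3% and 20.3%. On the same scale, between 43.5% (secretory, lower) and 67.0% (secretory, higher) of the called genes lay within 1.5-fold of each other in the endogenous cells. This scale draws low genes together, and no lower limit on the endogenous level was set. Jam2 in secretory cells, at 3.31 and 0.684 CPM (4.84-fold in CPM), counted as within 1.5-fold.

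In all 3 classes 91 genes were higher and 74 lower in the iBC graft, 1.91% and 1.55% of the 4764 genes measured in all 3, and 13 went in opposite directions in 2 classes. Some transcripts were close to absent from the iBC graft only. Among genes with at least 50 CPM in each of the other 3 libraries, 14 of 2573 in basal, 18 of 1572 in secretory and 28 of 3133 in ciliated cells were at least 16-fold lower in the iBC graft than in the lowest of the others. By the same rule, 0 genes were that far below the rest in any of the other 3 libraries. In the other direction, 11 basal, 16 secretory and 5 ciliated genes reached 50 CPM in the iBC graft and were at least 16-fold above the highest other library. The corresponding counts were 0, 0 and 1 for the primary BC graft. These 2 rules were chosen after values had been seen.

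**Figure D3:**
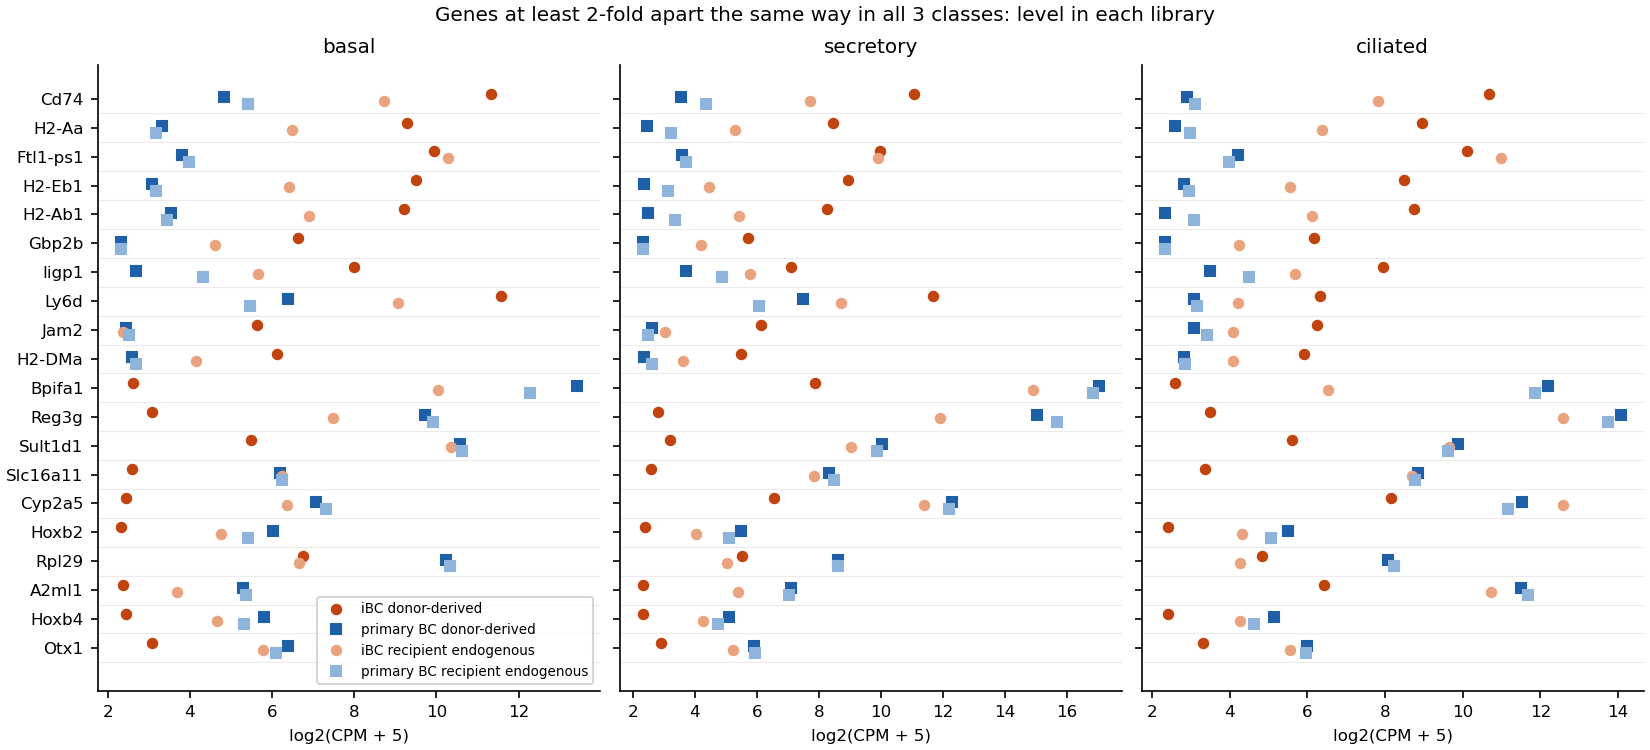
Levels as log2(CPM + 5) (x axis) in the 4 libraries of the 10 genes furthest up and the 10 furthest down in all 3 classes (y axis), by the smallest ratio over classes. The iBC donor-derived points lie to the right of both primary BC libraries for the upper 10 genes, and for Ftl1-ps1 and Rpl29 the 2 libraries of each recipient lie together.

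MHC class II transcripts were present in most iBC cells of each class. H2-Aa in basal cells stood at 619.9 CPM in the iBC graft, 4.92 CPM in the primary BC graft, 84.0 CPM in the endogenous cells of the iBC recipient and 4.09 CPM in the other endogenous cells. The iBC graft was 126-fold above the primary BC graft (96.6 to 167), and the endogenous cells differed 20.6-fold in the same direction. In secretory cells the 2 grafts had 346 and 0.487 CPM (3 UMIs) of H2-Aa, and in ciliated cells 487 and 1.03 CPM (3 UMIs). Thinned to 3000 UMIs a cell, 56.1% of iBC basal cells (74.3% before thinning) and 1.11% of primary BC basal cells (2.02%) had an H2-Aa UMI, with median depths of 9333 and 10531 UMIs. Of the iBC basal cells 9.78% had no UMI of any class II list gene, and the median cell had 9 such UMIs. In the primary BC basal class 93.8% of cells had none.

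The invariant chain gene Cd74, whose product guides class II molecules to the endosome, stood at 2562 CPM in iBC basal, 2149 CPM in secretory and 1648 CPM in ciliated cells. The primary BC graft had 23.4, 6.82 and 2.41 CPM, and the endogenous cells of the iBC recipient had 417, 205 and 222 CPM. Cd74 was thus 109.7-fold, 315-fold and 683-fold higher in the iBC graft. H2-Eb1 was at 719 CPM against 3.49 CPM in basal cells (206-fold, 150.5 to 290) and at 357 against 2.07 CPM in ciliated cells (173-fold, 79.1 to 472). In secretory cells it was at 486 CPM against 1 UMI, a ratio of 2996 with an interval of 537 to 118371. H2-Ab1 was at 589.5 against 6.62 CPM in basal cells, and in ciliated cells at 425 CPM against 0 UMIs, at least 410.4-fold higher with 3 UMIs in the class sum as the floor. H2-DMa, part of the complex that loads peptides, was 65.2-fold higher in basal cells (64.2 and 0.985 CPM). Ciita itself was at 26.6 CPM in iBC basal cells, 0.537 CPM in primary BC basal cells, and 4.92 CPM (iBC recipient) and 0.372 CPM (1 UMI, primary BC recipient) in endogenous cells.

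All measured class II list genes were higher in the iBC graft, 8 of 8 in basal, 6 of 6 in secretory and 7 of 7 in ciliated cells. Their median log2 ratio lay 4.52, 5.75 and 5.59 above that of all genes, and that of the endogenous cells 2.39, 1.88 and 2.66 above. The immune marker list summed to 4.36 CPM in iBC and 3.13 CPM in primary BC basal cells, with 0 of its genes measured in any class. MHC class I and its peptide supply followed at smaller size. Of the class I list 12 of 17 genes were higher in basal, 11 of 16 in secretory and 10 of 18 in ciliated cells, and 0 were lower. B2m, the light chain of class I, was at 1699 and 302 CPM in basal cells (5.62-fold, 5.41 to 5.84), 6.04-fold higher in secretory and 7.09-fold in ciliated cells. Psmb9, an immunoproteasome subunit, was 5.45-fold, 4.84-fold and 6.65-fold higher. H2-Q7 was 9.51-fold higher in basal cells and differed between the endogenous cells as well (2.63 on the log2 scale).

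Of the interferon-stimulated list, 14 of 28 genes were higher and 3 lower in basal cells, 15 of 29 and 1 in secretory cells, and 18 of 32 and 0 in ciliated cells. The GTPase genes Iigp1, Gbp2b and Igtp, whose products act against intracellular pathogens, were among them. Iigp1 in basal cells was at 250.1 CPM in the iBC graft, 1.43 CPM in the primary BC graft, 45.4 CPM in the iBC recipient's endogenous cells and 14.9 CPM in the other endogenous cells. The ratio between grafts was 175-fold (107 to 306). Gbp2b was at 94.3 CPM in iBC basal cells and at 0 UMIs in primary BC basal cells, at least 351-fold higher, and its endogenous levels were 19.5 and 0 CPM. Igtp was 15.7-fold higher in basal, 12.8-fold in secretory and 7.65-fold in ciliated cells. The T cell attractants Cxcl10 (95.8 and 0.716 CPM) and Cxcl9 (32.0 and 0 CPM, at least 119-fold) were higher in iBC basal cells. Ifit3 was called in secretory cells (11.4-fold) and in ciliated cells (8.23-fold), and in basal cells it was at 13.8 CPM, below the limit for measured genes in both grafts.

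**Figure D4:**
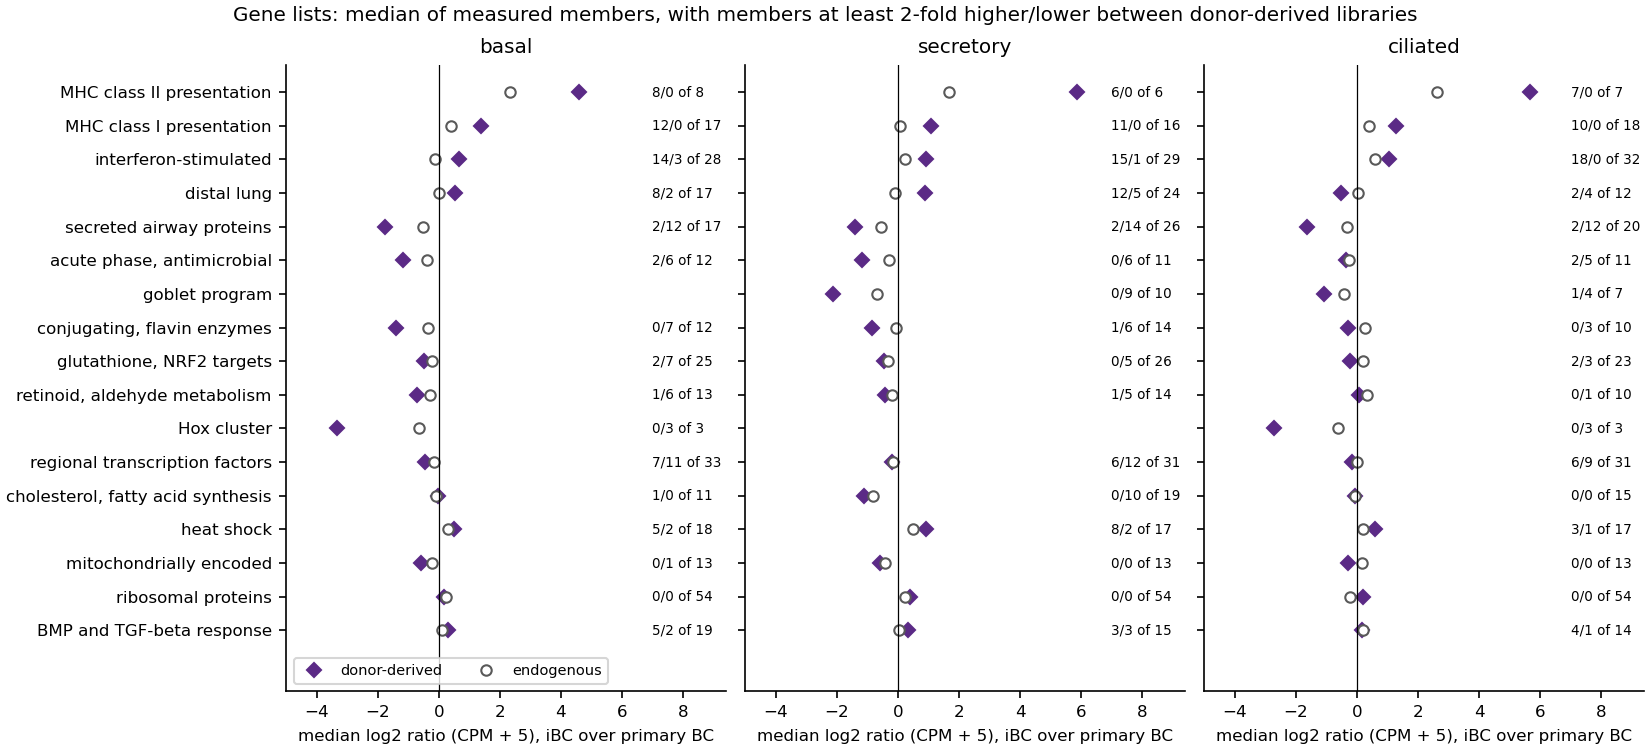
Median log2 ratio (CPM + 5) of iBC over primary BC recipient (x axis) for the measured members of 17 gene lists (y axis) in donor-derived (filled) and endogenous cells (open), with the numbers higher/lower of measured between donor-derived libraries at the right. MHC class II presentation lies furthest right in all 3 classes, and the Hox cluster furthest left in basal and ciliated cells.

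Several other genes were high in the iBC graft. Ly6d, a small membrane-anchored protein of basal and squamous cells, stood in basal cells at 3052 CPM in the iBC graft, 78.3 CPM in the primary BC graft, 529 CPM in the iBC recipient's endogenous cells and 39.4 CPM in the other endogenous cells. The grafts differed 39.0-fold (36.4 to 41.7) and the endogenous cells 13.4-fold. Psca, of the same family, was at 112 CPM in iBC basal and 638 CPM in iBC secretory cells and at 0 UMIs in both primary BC classes, at least 418-fold and at least 1310.1-fold higher. In the endogenous cells of the iBC recipient Psca was at 24.2 and 40.8 CPM. Thinned to 3000 UMIs, 52.4% of iBC secretory cells and 9.29% of iBC basal cells had a Psca UMI (77.3% and 17.9% before thinning). Jam2, a junctional adhesion molecule, was at 44.5, 65.1 and 70.4 CPM in the 3 iBC classes against 0.448, 1.14 and 3.45 CPM.

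The small heat shock protein gene Cryab was at 164 CPM in iBC basal and 274 CPM in iBC secretory cells and at 1.52 and 2.43 CPM in the primary BC graft, with endogenous levels of 1.09 to 1.86 CPM in these classes. Its relative Hspb1 went the other way, at 9.45 CPM in iBC and 319.5 CPM in primary BC basal cells, with endogenous levels of 503 and 335 CPM. Hspb1 was 33.8-fold lower (26.5 to 43.9), and 93.9-fold lower without the 14 cells. Of the heat shock list 5 of 18 genes were higher and 2 lower in basal cells, and 8 of 17 and 2 in secretory cells. Ferritin light chain pseudogene Ftl1-ps1 (975 and 8.95 CPM in basal cells) and the ribosomal protein gene Rpl29 (102 and 1197 CPM) differed as much between the endogenous cells, at 1234 and 10.8 CPM and at 96 and 1283 CPM. Both have near-identical copies, so how reads were assigned is uncertain.

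Some genes listed as distal lung were higher in iBC secretory cells. Of that list 12 of 24 measured genes were higher and 5 lower in secretory cells, 8 of 17 and 2 in basal cells, and 2 of 12 and 4 in ciliated cells. The whole list summed to 5315 CPM in iBC and 13464 CPM in primary BC secretory cells. Counted over 8 of its genes, 25.3% of iBC, 59.7% of primary BC and 26.8% of iBC recipient endogenous secretory cells had no UMI. Fabp5, a fatty acid carrier, was at 478 CPM in iBC and 2.27 CPM in primary BC secretory cells (210.2-fold, 125 to 385), with 4.22 and 5.47 CPM in the endogenous cells. Ager, a marker of alveolar type 1 cells, was at 76.6 CPM against 1 UMI, a ratio of 472 with an interval of 84.4 to 18685. Sftpb, a surfactant protein gene, was at 239 and 4.38 CPM, and at 149 and 2.60 CPM in the endogenous cells. The alveolar type 2 gene Sftpc was at 293 CPM in iBC secretory cells and at 0 UMIs in the primary BC ones, but 1 cell held 75.3% of its UMIs, and cells of the low chromosome 5 group held 2060 of 2275. In middle cells alone Sftpc stood at 33.7 CPM. In iBC basal cells it stood at 127 CPM, with 34.7% of the UMIs in 1 cell, and in ciliated cells it was lower in the iBC graft, at 12.4 and 55.5 CPM. Thinned to 3000 UMIs, 6.99% of iBC secretory, 8.79% of iBC basal and 2.01% of iBC ciliated cells had a Sftpc UMI.

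Outside that list, Clu, a secreted chaperone, was at 2396 CPM in iBC secretory cells and at 58.9, 60.8 and 44.7 CPM in those of the primary BC graft, the iBC recipient and the primary BC recipient. It was 40.7-fold higher (36.7 to 45.3), and 81.4% of iBC secretory cells had a Clu UMI after thinning against 14.2% of primary BC ones. Areg, a ligand of the EGF receptor, was at 99.8 against 0.649 CPM in the same class (154-fold, 59.8 to 566), and 6 of 12 measured genes of the EGF list were higher and 0 lower. Of the pluripotency list only Tfcp2l1 was measured, and it was higher by the 2-fold limit, at 20.8 and 9.58 CPM in basal (2.17-fold, 1.68 to 2.81) and at 49.4 and 23.2 CPM in secretory cells (2.13-fold, 1.75 to 2.60). Of the list of gut, liver, pancreas, stomach and thyroid genes 0 were measured in basal and secretory cells, and 2 in ciliated cells, where Olfm4 was higher (58.0 CPM and 0 UMIs, at least 56.1-fold).

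A pair of secreted antimicrobial products were far lower in the iBC graft. Of the acute phase and antimicrobial list as a whole, 6 of 12 genes were lower and 2 higher in basal, 6 of 11 and 0 in secretory, and 5 of 11 and 2 in ciliated cells. Bpifa1, an airway surface protein that binds bacterial lipids, stood in secretory cells at 231 CPM in the iBC graft, 133586 CPM in the primary BC graft, 30853 CPM in the iBC recipient's endogenous cells and 115839 CPM in the other endogenous cells. One iBC cell held 98.4% of the 1793 iBC UMIs. With the 14 cells Bpifa1 was 579-fold lower (553 to 607) and without them 35665-fold lower, at 3.75 CPM (29 UMIs). In basal cells the 2 grafts had 1.16 and 11001 CPM (0.296 CPM, 2 UMIs, in the iBC graft without the 14 cells), and in ciliated cells 0.978 (3 UMIs) and 4685 CPM. Reg3g, a lectin that kills gram-positive bacteria, was at 2.06 CPM in iBC and 33333 CPM in primary BC secretory cells, 16202-fold lower (9977 to 28346), and 13.4-fold lower in the endogenous cells of the iBC recipient (3861 and 51582 CPM). In ciliated cells it was at 6.20 and 17279 CPM. After thinning, 97.4% of primary BC secretory cells and 1.09% of iBC ones had a Reg3g UMI, and 52.1% of primary BC basal cells. RNA released from secretory cells was not measured, and its part in the basal and ciliated levels was not tested.

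Of the secreted airway protein list 12 of 17 genes were lower and 2 higher in basal, 14 of 26 and 2 in secretory, and 12 of 20 and 2 in ciliated cells. The goblet cell list went lower for 9 of 10 genes in secretory cells, with a median 2.26 below that of all genes on the log2 scale, and 0.49 below in endogenous cells. Agr2, a folding enzyme for mucins, was at 138 and 1855 CPM (13.4-fold lower, 12.6 to 14.3) and at 675 and 2759 CPM in the endogenous cells. Clca1, a mucus protein, was 58.2-fold lower (3.47 and 202 CPM). Tff2, a trefoil factor, was at 6.69 and 311 CPM in the grafts and at 1908 and 1418 CPM in the endogenous cells, where the iBC recipient had the higher level. Scgb3a1 was 4.30-fold lower in the graft (5063 and 21759 CPM) and 1.91-fold higher in the iBC recipient's endogenous cells. The lysozyme gene Lyz2 in ciliated cells was at 83.2 and 4569.9 CPM in the grafts (55.0-fold lower, 48.5 to 62.5) and at 4327 and 2479.6 CPM in the endogenous cells.

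Some enzymes that process foreign compounds were lower as well. Of the cytochrome P450 list 3 of 8 genes were lower and 0 higher in basal, 2 of 7 and 1 in secretory, and 2 of 5 and 0 in ciliated cells. Sult1d1 stood in basal cells at 40.1 CPM in the iBC graft and at 1529, 1313 and 1558 CPM in the primary BC graft, the iBC recipient's and the primary BC recipient's endogenous cells. It was 38.1-fold lower (33.8 to 43.1), and 68.9-fold lower, at 22.2 CPM, without the 14 cells, which were chosen partly by this gene. In secretory cells it was 243-fold lower (4.24 and 1032 CPM) and in ciliated cells 21.3-fold lower (43.7 and 932 CPM). The cytochrome P450 gene Cyp2a5 was at 88.1 and 5009 CPM in secretory cells (56.9-fold lower, 52.7 to 61.4). In ciliated cells Cyp2a5 was 10.5-fold lower in the iBC graft (279 and 2927 CPM) and 2.69-fold higher in the iBC recipient's endogenous cells (6170.2 and 2294 CPM). Of the conjugating and flavin enzyme list, which includes Sult1d1, 7 of 12 genes were lower in basal, 6 of 14 in secretory and 3 of 10 in ciliated cells, and 0, 1 and 0 were higher. The flavin monooxygenase gene Fmo6 (5.52 and 189 CPM) and the glucuronosyltransferase gene Ugt2b34 (2.18 and 141 CPM) were among those lower in basal cells. Without the 14 cells Fmo6 was at 2.81 CPM and Ugt2b34 at 0.740 CPM in the iBC graft. In secretory cells Cyp4a12b was at 0 UMIs in the iBC graft and 222 CPM in the primary BC graft, at least 576-fold lower. Of the glutathione and NRF2 target list 7 of 25, 5 of 26 and 3 of 23 genes were lower in the 3 classes and 2, 0 and 2 higher. Of the retinoid and aldehyde list 6 of 13, 5 of 14 and 1 of 10 were lower and 1, 1 and 0 higher.

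Slc16a11, a monocarboxylate transporter, stood apart in the iBC graft alone. In basal cells it was at 1.02 CPM there and at 68.2, 70.7 and 70.6 CPM in the primary BC graft and the 2 endogenous libraries. In secretory cells its levels were 1.03, 317, 226 and 352 CPM and in ciliated cells 5.22, 458, 409.7 and 436 CPM in the same order. Without the 14 cells the iBC levels were 0.296 CPM (2 UMIs) in basal and 0.387 CPM (3 UMIs) in secretory cells. With them the iBC graft was 67.0-fold, 308-fold and 87.8-fold below the primary BC graft, and the endogenous cells were within 1.56-fold of each other in the 3 classes. Among basal genes, the matrix protein gene Abi3bp (46.8 against 1221 CPM, 26.1-fold lower, 23.4 to 29.2, and 41.7-fold lower without the 14 cells) and Lgr6, a receptor for R-spondins (1.31 against 141 CPM, 108-fold lower, 56.8 to 237, and 0.604 CPM, 3 UMIs, in iBC cells with a middle chromosome 5 share), had endogenous levels of 1112 and 1346 CPM and of 64.5 and 109.6 CPM. F3, the tissue factor that starts clotting, was at 79.9 and 1276 CPM (14.7-fold to 17.4-fold lower), and Ptges, a prostaglandin E synthase, was at 1.60 and 88.9 CPM (0.888 CPM without the 14 cells). Cdo1, which oxidises cysteine, was at 1.02 and 118 CPM (0.444 CPM, 3 UMIs, without the 14 cells) and at 25.3 and 96.2 CPM in the endogenous cells.

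The measured Hoxb genes, transcription factors that mark position along the body axis, were lower. Hoxb2 was at 0 UMIs in iBC basal cells and at 59.5 CPM in primary BC basal cells, at least 137-fold lower, with 22.1 and 37.9 CPM in the endogenous cells. Hoxb4 was at 0.436 CPM (3 UMIs) and 50.4 CPM, a ratio of 116 with an interval of 39.3 to 562 (1 UMI without the 14 cells), and Hoxb3 at 0 UMIs and 34.3 CPM, at least 78.6-fold lower. The 3 genes were the measured members of the Hox list in basal and in ciliated cells, and all 3 were lower in both; in secretory cells Hoxb2 and Hoxb4 were measured and lower. Isl1, a factor of foregut and heart development, was at 1.02 and 62.3 CPM in basal cells (0 UMIs in the iBC graft without the 14 cells, at least 140.3-fold lower) and at 49.4 and 53.1 CPM in the endogenous cells. Otx1, a homeobox factor known from head development, was 22.7-fold lower in basal and 22.3-fold lower in secretory cells, and at 4.89 and 58.6 CPM in ciliated cells. Of the whole regional factor list, 11 of 33 genes were lower and 7 higher in basal, 12 of 31 and 6 in secretory, and 9 of 31 and 6 in ciliated cells. Foxq1, a forkhead factor, was at 204 CPM in iBC and 8.28 CPM in primary BC ciliated cells (24.7-fold higher, 16.4 to 38.8). Gata6, a factor of lung endoderm, was at 66.2 and 1.38 CPM and Id3, an inhibitor of helix-loop-helix factors that BMP induces, at 103 and 3.45 CPM in ciliated cells. The imprinted gene Igf2r, which clears the growth factor Igf2, was lower in all 3 classes, by 5.43-fold, 7.77-fold and 15.6-fold, and in ciliated cells its levels were 3.91, 61.0, 73.3 and 63.8 CPM.

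In ciliated cells a few genes of the ciliary axoneme were close to absent from the iBC graft while most were at the level of the primary BC graft. Spag6l, a protein of the central pair of microtubules, was at 3.26 CPM in the iBC graft, 310 CPM in the primary BC graft, 292 CPM in the iBC recipient's endogenous cells and 323 CPM in the other endogenous cells. It was 95.1-fold lower (51.5 to 199). Spag16, its partner in the central pair, was at 2.93, 239, 267 and 299 CPM in the same order (81.6-fold lower, 42.7 to 179). Tekt1, a filament protein inside the doublet microtubules, was at 5.87, 325, 342 and 378 CPM (55.3-fold lower, 34.8 to 93.7). The inner arm dynein heavy chain Dnah10 was at 3.26, 209.7, 148 and 245 CPM. After thinning, 0.803% of iBC ciliated cells and 58.0% of primary BC ciliated cells had a Spag6l UMI (1.2% and 98.1% before), against 0.166% and 0.202% of the basal cells, which carry no motile cilia. The median depths of the ciliated cells were 11729 and 17234 UMIs.

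Of 51 measured axoneme genes 10 were lower and 0 higher, and these 4 were the furthest down on the log2(CPM + 5) scale. The other 6, named after their values were seen, were Drc1 and Ccdc39, which belong to the dynein regulatory complex and the rulers of the axonemal repeat, the dynein genes Dnah7a and Dnah7b, and Spag8 and Tekt2. Drc1 was at 6.52 and 256 CPM, Dnah7a at 0.978 (3 UMIs) and 130.4 CPM (a ratio of 133 with an interval of 45.3 to 649), Spag8 at 9.13 and 119 CPM, and Ccdc39 at 174 and 490.4 CPM. Of the 10, 8 were at least 8-fold lower, and the other 41 genes lay between −0.77 and 0.55 on the log2 scale. The same 10 genes lay between −0.76 and 0.15 in the endogenous cells. The 10 genes lie on 6 chromosomes. Their promoters held a median of 12 CG dinucleotides in the 300 bases around the start. The same median held for the 32 of the other 41 whose promoter was counted. It was 8 over the 27025 promoters used for this count, a smaller set than the 32851 searched for GATTGG. Of the cilia and flagella associated genes, 2 of 24 were lower (Cfap53 and Cfap54), and of the intraflagellar transport and BBSome genes 0 of 32 were called either way. Of the regulators of multiciliated cell formation 2 of 15 were lower, one of them Gmnc, which starts the program (3.91 and 37.2 CPM, 9.52-fold lower), and 1 was higher.

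**Figure D5:**
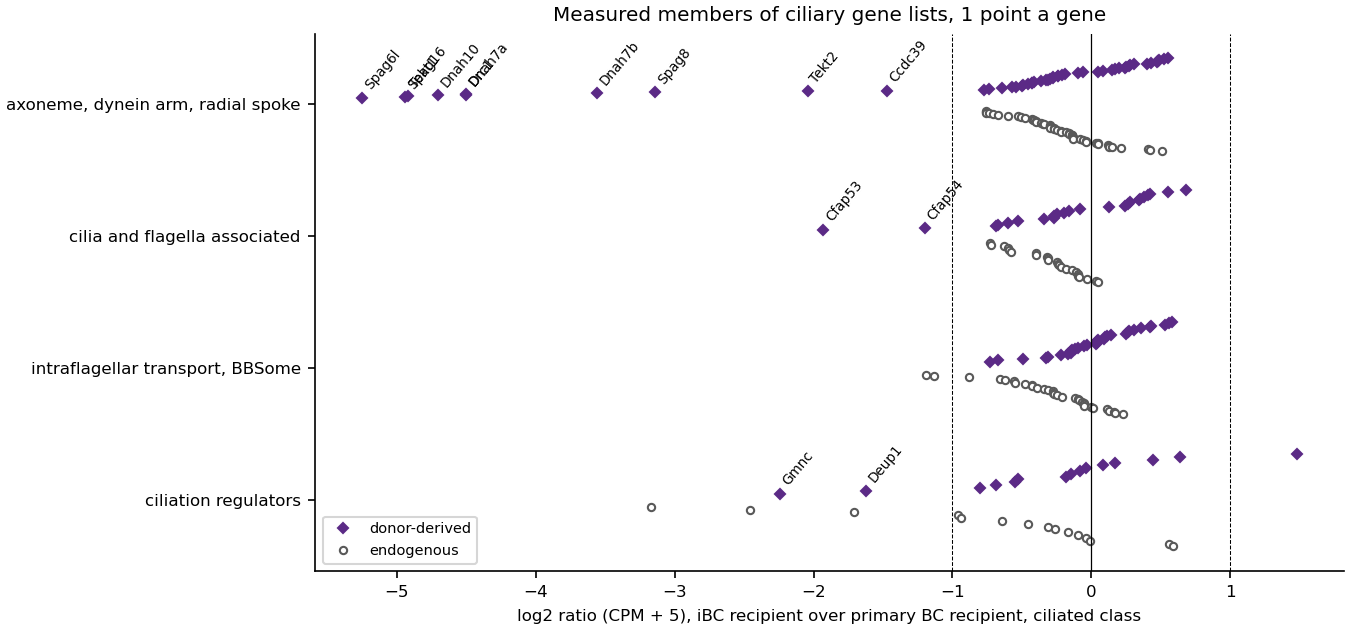
Log2 ratio (CPM + 5) of iBC over primary BC recipient (x axis) for each measured gene of 4 ciliary lists (y axis) in the ciliated class, donor-derived cells filled and endogenous cells open, with dashed lines at −1 and 1. The 10 lower axoneme genes lie to the left of the donor-derived rest, which keeps between −0.77 and 0.55, and their endogenous ratios lie between −0.76 and 0.15.

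Serpina9, Gtsf1l and Pttg1 were lower in ciliated cells in both comparisons of the recipients. Serpina9 was at 2.28 and 256 CPM in the grafts and at 21.8 and 236 CPM in the endogenous cells, Gtsf1l at 0 UMIs and 178 CPM and at 5.86 and 156 CPM, and Pttg1 at 0 UMIs and 165 CPM and at 5.86 and 134 CPM. A2ml1, a protease inhibitor, was 35.7-fold lower in the graft (80.9 and 2890.4 CPM) and 1.96-fold lower in the endogenous cells. Muc16, a membrane mucin, was 33.8-fold lower in the graft (12.1 and 408 CPM), and in the endogenous cells it was higher in the iBC recipient (750 and 259 CPM). Cdkn1c, a cell cycle inhibitor that is imprinted, was at 0.652 CPM (2 UMIs) and 40.7 CPM, a ratio of 62.4 with an interval of 16.9 to 521, and at 41.5 and 53.9 CPM in the endogenous cells.

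Lists of housekeeping function differed less. Of the ribosomal protein list, which does not hold Rpl29, 0 of 54 genes were called in any class, and their medians lay 0.09, 0.27 and 0.10 above that of all genes on the log2 scale. The 13 mitochondrially encoded genes had medians 0.66, 0.73 and 0.40 below that of all genes, with 1 called gene in basal cells and 0 in the others, beside median mitochondrial shares of 4.57% and 6.51% of UMIs in the 2 libraries. Of 73 nuclear genes of the respiratory chain 1 was called, in basal cells. Cholesterol and fatty acid synthesis genes were lower in secretory cells only by this limit, 10 of 19, with a median 1.26 below that of all genes and 0.61 below in endogenous cells; whether the classes differ was not tested. Of the hemidesmosome and basement membrane list, which holds basal cells to their matrix, 1 of 16 genes was lower and 0 were higher in basal cells. Of the immediate early genes, which tissue digestion can raise, 6 of 19 were higher and 0 lower in basal cells, with a median 0.31 above that of all genes between grafts and 0.42 above between endogenous cells; their part in the other differences was not tested.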

How the data were processed

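The tools named in the submitters' processing notes are Seurat, STARsolo and Cell Ranger, and the build is GRCm38; versions, and whether counting used strand, are not given in the sources used here. The authors deposited, per library, a matrix of UMI counts for 30907 features, whole numbers that were not normalized. From these, barcodes were filtered, doublets were removed with Scrublet (scanpy 1.11.5, Python 3.11.15), and cells were gated within each library. A cell entered a class where its marker score reached at least 0.5 of the span from the 5th to the 95th percentile of its library, under 0.4 for the other classes, with a hillock score under 1.5. These limits were chosen after marker levels had been seen. Counts were summed by library and class, scaled to CPM and compared as log2(CPM + 5) and as ratios with exact conditional 95% intervals. Intervals and floors (3 counts) cover counting error only. Genes were measured from 20 CPM in either sum and called at 2-fold in CPM; gate markers stay in these counts. With 1 library a group no test was run, and the unit of replication, the mouse, has n = 1. The calling script was tested on simulated data.

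Named genes were the 10 highest and 10 lowest ratios per class among genes that reached 50 CPM and 50 UMIs in one graft, with an interval bound at least 1.5-fold from 1, the same numbers for all classes together, and up to 4 members per list; 1 of these genes is not reported here. Gate markers, sex-linked genes, reporters, unnamed clones and genes at under 10% of their level in another class were left out of the ratios per class. The 10% limit was not applied to the genes for all classes together, and none of these exclusions to the list members. In primary BC basal cells Bpifa1, Reg3g and Cyp2a5 were at under 10% of their secretory level. The same holds for Bpifa1 in primary BC ciliated cells. Of 1300 list symbols 14 did not match, and 127 features share a symbol. Shares of cells with a UMI were taken after thinning each cell to 3000 UMIs. The cells, gene lists and comparisons were chosen with earlier results of these data known. The analysis alternatives, the 14 cells and the chromosome 5 groups among them, are given at the end.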

Additional observations from a re-analysis of the deposited data

Results flagged for a closer look

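In ciliated cells Cyp2a5, a cytochrome P450 gene, went opposite ways in the 2 comparisons. Its log2 ratio of iBC over primary BC was −3.37 between the grafts (279 and 2927 CPM) and 1.43 between the endogenous cells (6170.2 and 2294 CPM). Each value is from 1 library, and the difference was not tested.

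A feature for a second reporter, MCHERRY-FRT, which no comparison above uses, had 211 UMIs in the iBC donor-derived library. It was found in 193 of 1576 cells, or 12.2% (exact interval 10.7 to 14%), at 14.2 CPM in the basal, 6.81 CPM in the secretory and 10.1 CPM in the ciliated class. It was found in 0 of 1805 primary BC donor-derived and 0 of 1807 iBC recipient endogenous cells, which allows a share of cells with a UMI of up to 0.166% in each (3 cells of the total), and in 0 of 1354 primary BC recipient endogenous cells, which allows up to 0.222%. At about 1 UMI in each cell that had one, cells that carry the feature can go undetected.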

How the results depend on the processing

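No paired analysis was possible because each group is 1 library, and for the same reason no replicate could be left out. No list median or named ratio of at least 1 on the log2 scale changed its sign under any alternative. The balance of higher and lower called genes did turn. With trimmed-mean (TMM) scaling, 392 genes were higher and 429 lower in basal cells, and 386 and 420 in secretory cells. With ratios centred on their median these were 386 and 445, and 375 and 442. The numbers of called genes moved by over 1.5 times with the limit on measured genes, which changes how many genes are compared. At 5 CPM, 739 genes were higher and 853 lower in basal, 880 and 785 in secretory, and 928 and 942 in ciliated cells. At 50 CPM these were 216 and 185, 208 and 186, and 224 and 236. With cells thinned to 3000 UMIs, 708 genes were higher in ciliated cells. Gated shares moved with the gate. The iBC basal share was 29.4% with a stricter gate, 42.5% with a looser one, 45.0% by Leiden clusters and 33.5% after thinning. The primary BC basal share was 38.7%, 65.5%, 67.6% and 50.3% in the same order. The iBC secretory share was 23.1%, 32.0% and 33.5% with the stricter gate, the looser gate and clusters, and the primary BC one 11.4%, 18.7% and 10.9%. Of 1916 list medians recomputed 35 moved by over 1.5-fold, and of 7815 ratios of named genes 463 did on the log2(CPM + pseudocount) scale, 377 of them with a pseudocount of 1 or 20 CPM. Leaving out the 14 iBC cells and keeping only iBC cells with a middle chromosome 5 share, both chosen after seeing the data, moved 5 and 4 named ratios by over 1.5-fold on that scale, and the iBC CPM of 20 and 12 of the 521 named values. The high chromosome 5 share of 23.4% became 19.8% with wider limits. Ratios of genes with few UMIs in one graft are limited by depth, as their intervals show.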
